A study of Homo sapiens with 11 samples.

Results

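The prognosis of uveal melanoma, a cancer of pigment cells in the eye, is read from a small set of genes, and 10 of them were examined here in 92-1 cells, an established uveal melanoma cell line. They were taken by name: PRAME, HTR2B, ECM1, RAB31, CDH1, ID2, ROBO1, SATB1, LMCD1 and BAP1, out of 20037 protein-coding genes on the RefSeq annotation of GRCh38.p14. For each gene a window was drawn from its gene body with 50 kb added on either side, and every peak that shared a base with the window was counted. The 10 windows together spanned 2642 kb, of which the ROBO1 window alone was 48.1%.

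Treatment lasted 4 h, either with the solvent DMSO or with FHT-1015, which inhibits both SMARCA4 (also called BRG1) and SMARCA2, the ATPases that drive BAF chromatin remodelling complexes. The labels gave no concentration, and no genotype or further agent was named for either group. Chromatin immunoprecipitation and sequencing (ChIP-seq) was done with 5 antibodies, raised against the histone mark H3K27ac, against SMARCA4 and against 3 transcription factors: SOX10, TFAP2A and MITF. The titles of the TFAP2A samples read AP-2, and the antibody list of the protocol names TFAP2A. Of the 11 samples, 10 were immunoprecipitates with 1 library per antibody and condition, and the other was a DMSO input for which no peak list was used. Without replicates no test was made, and every difference below compares 2 libraries.

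H3K27ac is acetylation of histone H3 at lysine 27, found at active promoters and enhancers. MITF and SOX10 are factors of the melanocyte lineage, and TFAP2A is an AP-2 family factor that works with them in pigment cells. In the clinical expression test for uveal melanoma, CDH1, ECM1, HTR2B and RAB31 are higher in tumours of the high-risk class, and ID2, LMCD1, ROBO1 and SATB1 are lower. PRAME is used as an added risk marker, and BAP1 is the tumour suppressor whose loss accompanies metastatic disease.

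The lists held between 33268 peaks (SOX10 in FHT-1015) and 142667 peaks (TFAP2A in DMSO). The number of reads piled up at each summit, called summit reads here, was recovered from the deposited fold and p-value. Its median per list ran from 8 (MITF in FHT-1015) to 26 (H3K27ac in FHT-1015). Relative depth, FHT-1015 over DMSO, was lowest for MITF (0.854), then SMARCA4 (0.918), TFAP2A (0.96), H3K27ac (1.05) and SOX10 (1.15). Summit reads and their ranges are given as counted, and ratios are divided by relative depth where this is said. As a check of the labelled cell type, 7 of 7 melanocyte genes (PMEL, MLANA, MITF, SOX10, TYRP1, DCT and TYR) carried H3K27ac in DMSO. Of 6 genes of other cells, PTPRC carried it and CD3E, PECAM1, EPCAM, ALB and MYOD1 did not.

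Active chromatin was defined as at least 1 H3K27ac peak with a q-value under 0.05 on the gene body or within 1 kb of it. By this rule 9 of the 10 genes carried active chromatin in DMSO and 8 in FHT-1015. PRAME, which encodes a cancer-testis antigen, carried none in either condition, and ECM1, which encodes a secreted matrix protein, carried it in DMSO and not in FHT-1015. Among all coding genes, 32.4% carried none in DMSO and 34.3% carried none in FHT-1015. Of coding genes with active chromatin in DMSO, 5.02% had none in FHT-1015. All 9 comparison genes, which are the other class and control genes of the test (EIF1B, FXR1, LTA4H, MTUS1, MRPS21, RBM23 and SAP130) with SF3B1 and EIF1AX, carried it in both conditions.

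The presence of an H3K27ac peak on the gene did not mean that the gene's start carried one. CDH1, which encodes the adhesion molecule E-cadherin, had its H3K27ac inside the gene body, and the nearest H3K27ac peak to its lower-coordinate end was 22978 bases away in DMSO and 46242 bases away in FHT-1015. ROBO1, which encodes a receptor for Slit guidance ligands, had 2 annotated starts, and the upstream one was 86019 bases from the nearest H3K27ac peak in DMSO while the inner one lay under a strong peak. SATB1, which encodes a chromatin organiser, had H3K27ac at 3 of its 4 annotated starts in both conditions. RAB31, which encodes a small GTPase of vesicle transport, had only weak H3K27ac in DMSO, with no peak that reached a −log10 p of 10. With that stricter threshold the genes without active chromatin were PRAME and RAB31 in DMSO, and PRAME and ECM1 in FHT-1015.

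Over the 10 windows together, 118 SOX10 peaks were listed under DMSO and 44 under FHT-1015, a ratio of 0.373. H3K27ac had 92 and 73 peaks (ratio 0.793), SMARCA4 115 and 116 (1.01), MITF 101 and 105 (1.04), and TFAP2A 159 and 143 (0.899). SOX10 peaks were fewer in FHT-1015 at 8 of the 10 genes, beside 92.3% of coding-gene windows with a DMSO SOX10 peak. The exceptions were ID2, with 9 and 11 SOX10 peaks, and PRAME, with 1 and 2. H3K27ac peaks were fewer at 8 genes (69.4% of coding-gene windows), as many at PRAME and more at ROBO1 alone (12.7% of coding-gene windows). SMARCA4 peaks were fewer at 4 genes (47.8% of windows), MITF peaks at 3 (46.8%) and TFAP2A peaks at 6 (49.6%). None of these 5 counts stood far from the share among coding genes.

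Peaks were called strong at a −log10 p of 10 or more, and counting these alone gave other tallies. Strong H3K27ac peaks were fewer at 3 genes (ECM1, ID2 and LMCD1), more at 4 (RAB31, CDH1, ROBO1 and SATB1) and equal at the other 3. RAB31 had no strong H3K27ac peak in DMSO and so could not have fewer. Of the 9 genes that had one, 3 had fewer, 3 as many and 3 more. Among coding-gene windows with a strong DMSO H3K27ac peak, 46.2% had fewer in FHT-1015, and the share with more was not computed. Every strong DMSO H3K27ac peak at ECM1, ID2 and LMCD1 had an FHT-1015 peak over it. Some of those FHT-1015 peaks lay over several DMSO peaks, which lowers the number. Strong SOX10 peaks were fewer at all 9 genes that had one in DMSO, beside 97.8% of such coding-gene windows. ID2 had 8 and 3 of them and PRAME 1 and 0, so neither was an exception by this count.

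**Figure D1:**
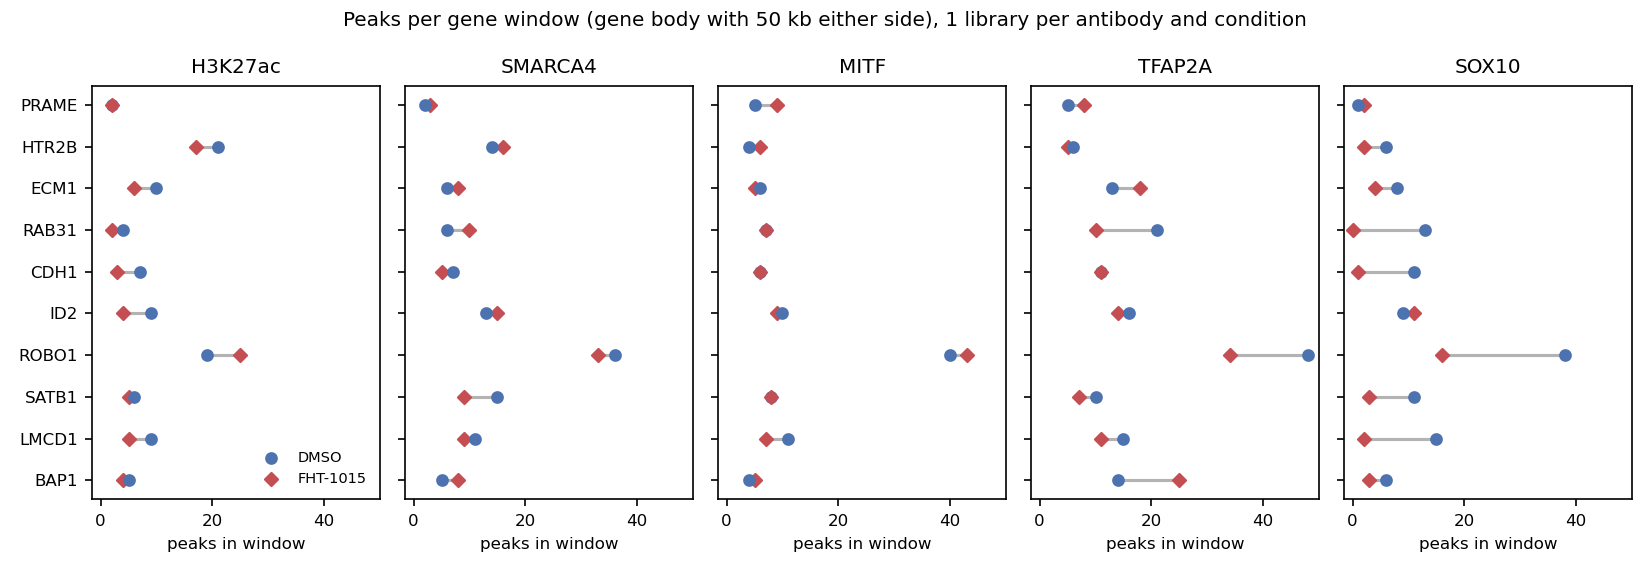
Number of peaks (x axis) in the window of each of the 10 genes (rows), 1 panel per antibody, in DMSO (blue circles) and FHT-1015 (red diamonds), each from 1 library. SOX10 went from 13 to 0 peaks at RAB31 and from 11 to 1 at CDH1, while ID2 had 9 and 11.

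Retained DMSO peaks were those overlapped, by 1 base or more, by a peak of that antibody in FHT-1015. The retained share was 27.1% for SOX10 (32 of 118, 95% Wilson interval 19.9–35.8%). H3K27ac kept 67.4% (62 of 92, 57.3–76.1%), TFAP2A 63.5% (101 of 159, 55.8–70.6%), SMARCA4 55.7% (64 of 115, 46.5–64.4%) and MITF 47.5% (48 of 101, 38.1–57.2%). The whole lists, taken at the same DMSO peak strength, had 18.7% (SOX10), 56.4% (H3K27ac), 53.1% (SMARCA4), 36.3% (MITF) and 55.9% (TFAP2A). The members' shares lay above these values for all 5 antibodies, and for SOX10, H3K27ac and MITF the interval lay wholly above. Without ROBO1 the H3K27ac share was 60.3% (48.8–70.7%), and this interval takes in the same-strength value of 55.6%. Without ROBO1 the SOX10 share was 25% (16.8–35.5%) beside 16.7%, and the MITF share 52.5% (40.2–64.5%) beside 37.1%. The intervals cover counting error over peaks, which lie close together in few windows, and not the variation between cultures.

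**Figure D2:**
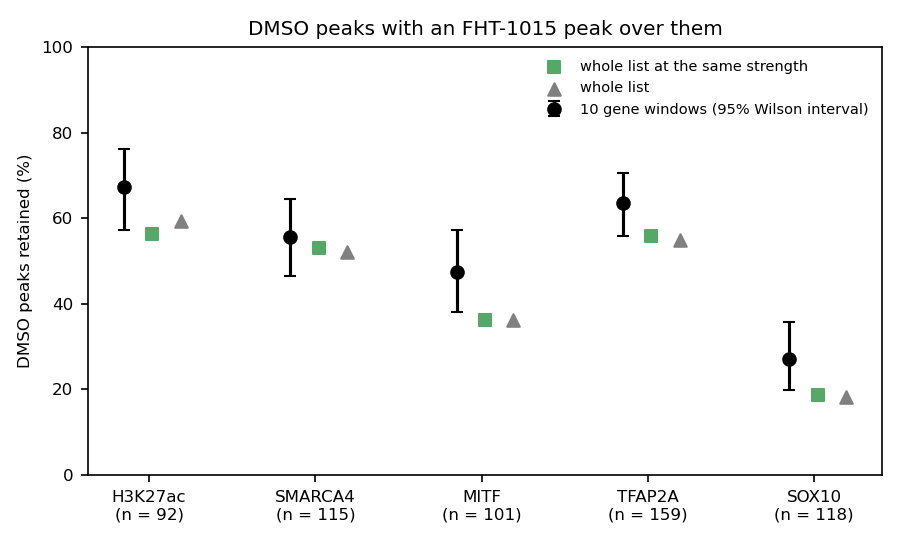
Share of DMSO peaks with an FHT-1015 peak over them (y axis, percent) for each antibody. Black circles with 95% Wilson intervals show the 10 windows, green squares the whole list at the same strength and grey triangles the whole list. SOX10 was lowest at 27.1% against 18.7% at the same strength.

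Of the peaks strong in DMSO, all 40 H3K27ac peaks were retained, beside 87.6% of strong peaks in the whole list. The counts were 67 of 82 for TFAP2A (81.7%, whole list 71.5%) and 21 of 24 for SMARCA4 (87.5%, whole list 85.2%). They were 30 of 37 for MITF (81.1%, whole list 61.7%) and 24 of 45 for SOX10 (53.3%, whole list 33%). All 24 retained strong SOX10 peaks had fewer summit reads in FHT-1015 after division by relative depth, with a median ratio of 0.443 (range 0.193 to 0.87). In 400 strong retained SOX10 peaks drawn evenly from the whole list the median was 0.516 (quartiles 0.4 and 0.615). For H3K27ac the median ratio over the members was 1.25, beside 1.21 in the whole list, and 27 of the 40 peaks were above 1. For MITF it was 0.695 beside 0.615, for TFAP2A 0.747 beside 0.734, and for SMARCA4 0.88 beside 0.97. Where an FHT-1015 peak lay over several strong DMSO peaks, each was set against it, in the members and the whole list alike. The 40 H3K27ac ratios are therefore not independent. The highest, 3.87 at LMCD1, set a DMSO peak of 31 reads against an FHT-1015 peak of 126. That FHT-1015 peak also lay over a DMSO peak of 66 reads.

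These totals depended on how peaks were counted. With strong peaks only in both lists, the MITF ratio was 0.622 instead of 1.04 and the SOX10 ratio 0.178 instead of 0.373. With summits required to lie within 200 bases, the H3K27ac retained share was 33.7% instead of 67.4%.

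The length covered by SOX10 peaks over the windows was 53.5 kb in DMSO and 14.7 kb in FHT-1015, a ratio of 0.274. For H3K27ac it was 88.9 and 83.8 kb (0.943), while the mean H3K27ac peak width was 966 bases in DMSO and 1148 in FHT-1015. Fewer H3K27ac peaks therefore covered nearly the same length in total. Without ROBO1, which had 17.3 and 21.7 kb, the H3K27ac ratio was 0.867. By gene it ran from 0.262 at RAB31 to 1.38 at PRAME. HTR2B had the highest H3K27ac cover in both conditions, 17.1% of its window in DMSO and 17.2% in FHT-1015, and the lowest was PRAME in DMSO (1.14%) and RAB31 in FHT-1015 (0.356%).

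**Figure D3:**
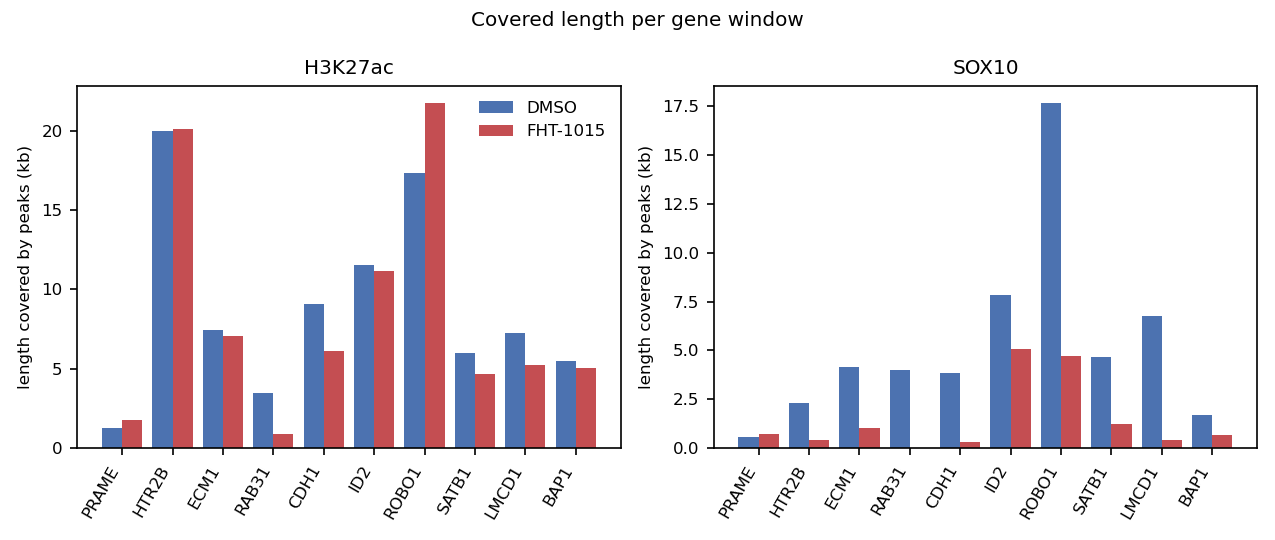
Length covered by H3K27ac peaks (left) and SOX10 peaks (right) in each gene window, in kb, in DMSO (blue bars) and FHT-1015 (red bars), each from 1 library. H3K27ac at RAB31 covered 3.45 kb in DMSO and 0.904 kb in FHT-1015, and SOX10 covered no base there in FHT-1015.

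PRAME, on chromosome 22 (22547701–22559265, reverse strand), had no H3K27ac peak on its gene body, and TFAP2A alone had peaks there in DMSO. A TFAP2A peak at the first annotated start had 14 summit reads in DMSO and 22 in FHT-1015, and a second at 22552633–22552968 had 37 and 29. The window's only strong H3K27ac peak, 22507814–22508844, lay 39150 bases beyond the end of PRAME at a boundary of the neighbouring gene ZNF280B, with 61 summit reads in DMSO and 78 in FHT-1015. TFAP2A at this site had 260 summit reads in DMSO (exact 95% Poisson interval 229–294, as for all later ranges beside reads) and 220 in FHT-1015 (192–251). By −log10 p this was peak 12 of the whole DMSO TFAP2A list. SOX10 there had 51 reads in DMSO and 22 in FHT-1015. The strong H3K27ac of the PRAME window thus lay at another gene.

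The promoter of the first PRAME start is shown because a TFAP2A summit lay in it without H3K27ac. Promoters here run from 250 bases before a start to 20 after it, in the direction of the gene, as RefSeq gives them for GRCh38.p14. Motifs searched on both strands were GCCNNNGGC for TFAP2A, CACGTG and CATGTG for MITF, and ACAAAG and ACAATG for SOX10. They occur in 23.2%, 7.26%, 11.1%, 16.1% and 10.8% of 35116 promoters, counted up to 50 bases past the start, and are written in capitals. None of these letters was found in this PRAME promoter, at chr22:22559246-22559515.
PRAME first start: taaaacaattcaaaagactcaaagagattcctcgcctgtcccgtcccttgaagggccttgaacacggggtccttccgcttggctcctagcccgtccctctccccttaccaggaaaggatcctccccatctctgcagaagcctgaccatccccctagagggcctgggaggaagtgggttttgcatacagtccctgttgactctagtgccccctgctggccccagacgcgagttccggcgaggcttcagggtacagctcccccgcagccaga

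ECM1, on chromosome 1 (150508109–150513789), had a small H3K27ac peak over its start in DMSO, 150508087–150508344 with 16 summit reads, and none there in FHT-1015. A second peak of 16 reads, 150514280–150514563, just past the end of the gene, was also absent in FHT-1015. The main site lay further past the end: 2 DMSO peaks, 150514752–150515585 with 99 reads and 150515762–150516519 with 90, were replaced by 1 FHT-1015 peak, 150514866–150517193, with 182 reads. That peak began 1077 bases past the gene end, just outside the 1 kb limit. With a limit of 2 kb, chosen after these values were seen, ECM1 carried active chromatin in both conditions and 9 genes did so in FHT-1015. The strong DMSO peak of 99 reads began 963 bases past the gene end, inside the 1 kb limit. On the gene body alone the difference between the conditions at ECM1 remained, through the small DMSO peak over the start. It ended when the limit was widened to 2 kb.

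No factor summit lay within 1 kb of the ECM1 start in DMSO, and the nearest TFAP2A peak upstream, 150506568–150507136, had 11 reads in DMSO and 18 in FHT-1015. In the window, SOX10 had 8 peaks in DMSO and 4 in FHT-1015, of which 2 of the 8 were retained. The strongest lost one, 150532233–150533222, had 65 reads. TFAP2A had 13 and 18 peaks, with 12 of 13 retained (92.3%, whole list at this strength 62.7%). Its strongest FHT-1015 peak, 150548570–150549251, had 137 reads against 96 in DMSO. MITF had 6 and 5 peaks, all 6 retained (whole list at this strength 45.3%). The window also holds RPRD2, TARS2 and ADAMTSL4, and 4 of the 10 DMSO H3K27ac peaks lay within 1 kb of a boundary of a neighbouring gene.

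HTR2B encodes a serotonin receptor and lies on chromosome 2 (231108230–231125042), inside PSMD1, a proteasome subunit gene whose body spans most of the window. H3K27ac peaks numbered 21 in DMSO and 17 in FHT-1015, more than at 95.8% of coding genes in DMSO. A peak of 4941 bases, 231121508–231126448, covered the higher-coordinate end of HTR2B with 114 summit reads (94–137) in DMSO and 166 (142–193) in FHT-1015. A SOX10 peak over the same gene end was retained, with 24 and 18 reads. A second element, 231159159–231163972 in the flank, had 116 H3K27ac reads (95.9–139) in DMSO and 78 (61.7–97.3) in FHT-1015. There MITF had 85 and 33 reads, and a SOX10 peak of 41 reads was lost. So H3K27ac at the 2 largest sites of the window differed in direction, with ratios of 1.39 and 0.64 after division by depth. The ranges at the second, for reads as counted, overlapped slightly. That second site was the window's strongest H3K27ac peak in DMSO, which by itself favours a lower value in the second library. SOX10 had 6 peaks in DMSO and 2 in FHT-1015 over the window.

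RAB31, on chromosome 18 (9708301–9862551), was the only one of the 10 genes with no SOX10 peak left, from 13 in DMSO. Among coding-gene windows with a DMSO SOX10 peak 14.5% had none left, and among those with at least 10 such peaks 2.95% had none. With 100 kb added on either side, RAB31 had 26 under DMSO and 3 under FHT-1015, so the absence holds for the 50 kb window. Neither percentage was matched for peak strength. At the strength of the 13 RAB31 peaks the whole list kept 8.96%, within their Wilson interval of 0–22.8%. RAB31 is therefore not shown to differ from peaks of like strength. The 13 lost peaks were weak, the strongest having 23 summit reads and a −log10 p of 7.75. TFAP2A had 21 and 10 peaks, with 8 retained (38.1%, whole list at this strength 53.4%). The strongest lost TFAP2A peak, 9709561–9710049, had 81 reads and lay 1567 bases inside the gene. H3K27ac had 4 peaks in DMSO and 2 in FHT-1015. Just inside the start, the 1898-base DMSO peak had 23 summit reads, at a summit 1702 bases into the gene. The 491-base FHT-1015 peak had 27, at a summit 256 bases into the gene, so these counts come from different places. SMARCA4 at the start had 25 reads (16.2–36.9) in DMSO and 52 (38.8–68.2) in FHT-1015, a ratio of 2.27 after division by depth, the highest of the 21 strong retained SMARCA4 peaks in the windows.

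The RAB31 promoter, at chr18:9708051-9708320, was chosen for printing after its values were seen. Peaks of SMARCA4, TFAP2A and, in DMSO, SOX10 overlapped it, though no summit lay in it. It holds GCCNNNGGC starting 69 and 39 bases before the start and CACGTG starting 60 bases before it.
RAB31 start: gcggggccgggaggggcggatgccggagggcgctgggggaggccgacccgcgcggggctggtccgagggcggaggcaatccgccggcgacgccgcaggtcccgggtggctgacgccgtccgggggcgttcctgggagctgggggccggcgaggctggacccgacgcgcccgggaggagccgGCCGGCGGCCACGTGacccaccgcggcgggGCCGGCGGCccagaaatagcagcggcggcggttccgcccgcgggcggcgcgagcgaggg

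CDH1, on chromosome 16 (68737292–68835537), carried 1 large H3K27ac peak well inside the gene, 68782505–68789090, which was 6586 bases wide with 150 summit reads in DMSO. In FHT-1015 it was split into 68783534–68785628 with 40 reads and 68786158–68788721 with 88. SOX10 at its strongest site, 68786570–68787140, had 189 reads (163–218) in DMSO and 46 (33.7–61.4) in FHT-1015. The ratio was 0.212 after division by depth, below the lower quartile of the whole list, 0.4. By −log10 p it was peak 646 of the DMSO SOX10 list. MITF at that site had 181 and 72 reads. At the neighbouring site 68784064–68785129, MITF had 142 reads (120–167) in DMSO and 25 (16.2–36.9) in FHT-1015. A SOX10 peak of 49 reads there, 68784079–68784665, was lost. So SOX10, MITF and H3K27ac at this element were all lower in FHT-1015, while the peaks stayed listed at the SOX10 summit. These sites were picked among the strongest in DMSO, which by itself favours lower values in the second library. The same limit holds for strongest DMSO peaks named below. Among them are MITF at ROBO1 (78838098–78838795), TFAP2A and SOX10 at SATB1, and TFAP2A at BAP1. At LMCD1 they are those of H3K27ac, MITF, TFAP2A and SOX10.

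Of the 11 CDH1-window SOX10 peaks in DMSO, 1 was retained (9.09%, whole list at this strength 16.8%). The nearest peak of any antibody to the lower-coordinate end of CDH1 was a SMARCA4 peak 3806 bases away in DMSO and a TFAP2A peak 4694 bases away in FHT-1015. Another strong H3K27ac peak in the window, 68843261–68844493, lay outside CDH1 at a boundary of TANGO6, with 130 reads in DMSO and 204 in FHT-1015. Its direction was opposite to that of the CDH1 element.

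**Figure D4:**
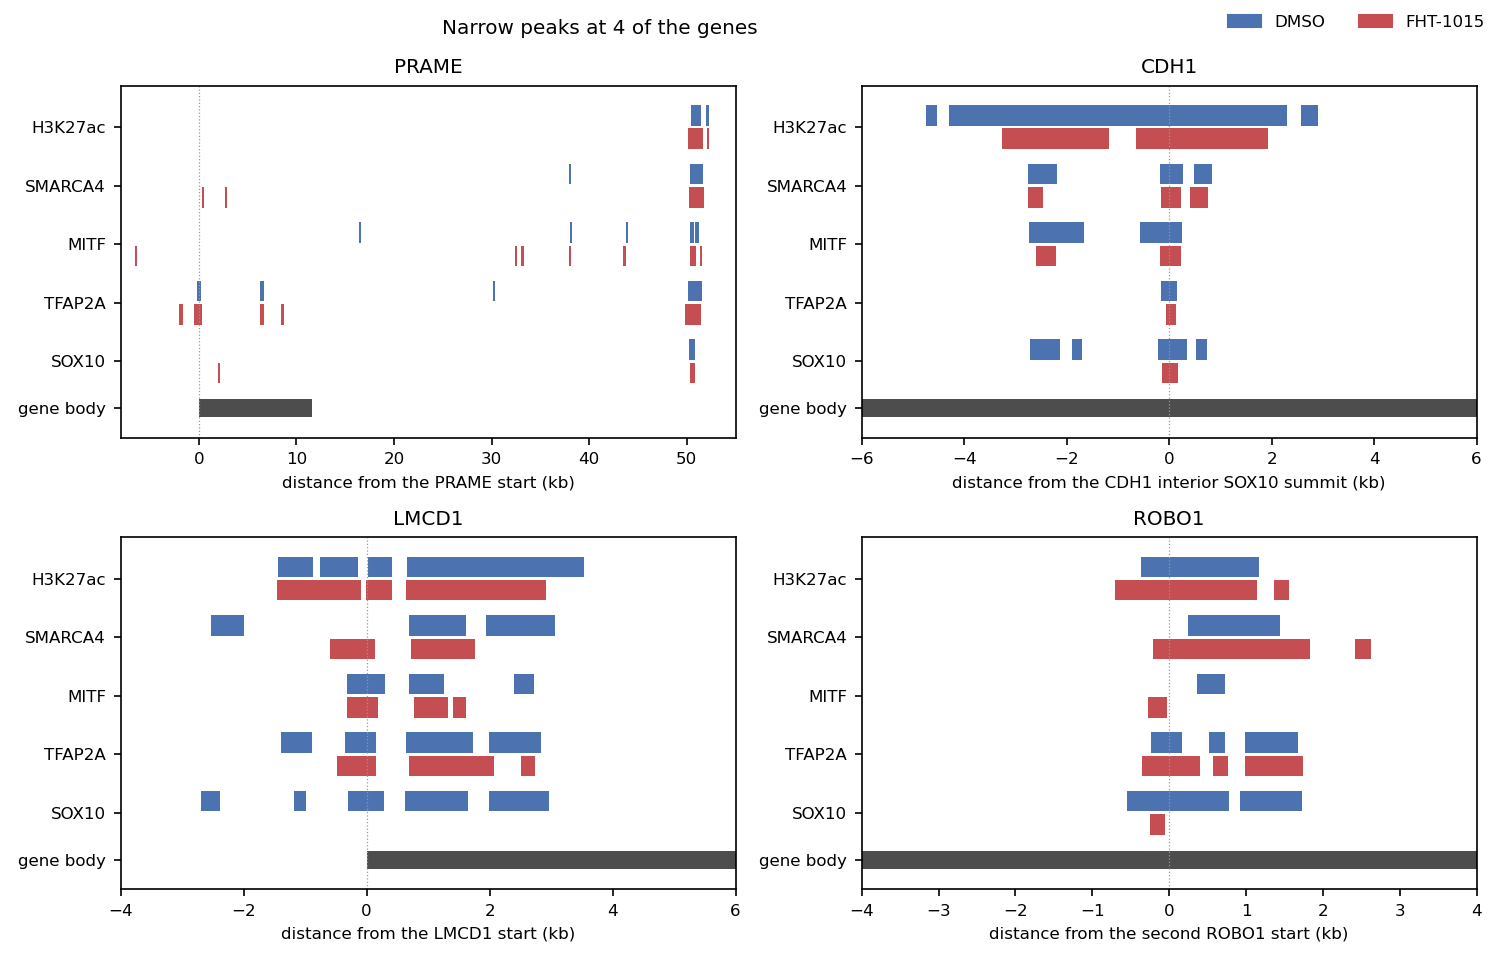
Narrow peaks of the 5 antibodies (rows, DMSO in blue above FHT-1015 in red) against distance in kb, in the direction of the gene, from the PRAME start, the strongest CDH1 SOX10 summit, the LMCD1 start and the inner ROBO1 start. For CDH1, distance increases with the coordinate. PRAME has no H3K27ac over its gene body, the 6586-base CDH1 peak is split in FHT-1015, and no FHT-1015 SOX10 peak is listed near the LMCD1 start.

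ID2 encodes an inhibitor of helix-loop-helix transcription factors and lies on chromosome 2 (8682056–8684461). SOX10 in its window had 9 and 11 peaks, and strong ones numbered 8 and 3. Of the 9, 6 were retained (66.7%, whole list at this strength 25.6%). All 6 retained peaks lay within 5 kb of the gene and were strong in DMSO. At the start SOX10 had 78 reads (61.7–97.3) in DMSO and 56 (42.3–72.7) in FHT-1015. The depth-adjusted ratio of the 6 ranged from 0.57 to 0.87, and 0.516 was the median of the whole list. The greater number in FHT-1015 came in part from the 1915-base DMSO peak 8678702–8680616, over which 4 FHT-1015 peaks lay, and the covered length was 7.85 kb in DMSO and 5.1 kb in FHT-1015.

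H3K27ac at ID2 had 9 peaks in DMSO and 4 in FHT-1015, but 11.5 and 11.2 kb were covered because neighbouring peaks were joined. The strongest, upstream of the start, had 224 summit reads (196–255) in DMSO and 284 (252–319) in FHT-1015, and was peak 197 and peak 58 of its list. MITF at the same place had 78 and 98 reads and TFAP2A 104 and 151. SMARCA4 had 13 and 15 peaks, with 11 of 13 retained (84.6%, whole list at this strength 63.3%). The non-coding gene ID2-AS1 shares this upstream stretch, so peaks there cannot be given to ID2 alone.

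ROBO1, on chromosome 3 (78597239–79767998, reverse strand), was the only gene with more listed H3K27ac peaks in FHT-1015, 25 against 19. Of the 19, 18 were retained (94.7%, whole list at this strength 59.4%). Its strong H3K27ac peaks numbered 11 and 10, and RAB31, CDH1 and SATB1 also had 1 more strong peak in FHT-1015. Another 11 FHT-1015 peaks had no DMSO peak under them, and the strongest, 79384646–79385986, had 23 reads. H3K27ac covered 17.3 and 21.7 kb. At the inner start H3K27ac had 99 reads (80.5–121) in DMSO and 149 (126–175) in FHT-1015. There TFAP2A had 31 (21.1–44) and 50 (37.1–65.9), and SOX10 had 34 (23.5–47.5) and 25 (16.2–36.9). The ranges of both factors overlapped, so an opposite direction of acetylation and SOX10 at this start is not shown.

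SOX10 in the ROBO1 gene body had its best-kept strong site at 78725729–78726161, with 62 reads in DMSO and 50 in FHT-1015. MITF there had 105 and 108 reads, TFAP2A 89 and 81 and SMARCA4 36 and 44. At 78838098–78838795, by contrast, MITF had 127 reads (106–151) in DMSO and 29 (19.4–41.6) in FHT-1015, and SOX10 there had 54 and 12. H3K27ac over this second site had 27 and 30 reads, so the factors and the mark did not move alike. Over the window SOX10 had 38 and 16 peaks, with 12 retained (31.6%, whole list at this strength 22.9%). The strongest lost one, 79081229–79081818, had 58 reads.

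The promoters of the ROBO1 starts are shown because they were occupied differently. The upstream one, at chr3:79767979-79768248, held a weak MITF summit in DMSO and no H3K27ac. It begins with CATGTG on the other strand, read here as CACATG, at 250 bases before the start. The inner one, at chr3:79019440-79019709, held TFAP2A and SOX10 summits in both conditions and a MITF summit in FHT-1015, and holds none of the motifs.
ROBO1 upstream start: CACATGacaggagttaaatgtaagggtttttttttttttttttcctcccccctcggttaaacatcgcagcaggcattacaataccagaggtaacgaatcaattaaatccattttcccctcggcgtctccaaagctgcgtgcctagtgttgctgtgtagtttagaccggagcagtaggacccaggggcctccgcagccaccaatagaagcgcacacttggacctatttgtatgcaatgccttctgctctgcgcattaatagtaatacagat
ROBO1 inner start: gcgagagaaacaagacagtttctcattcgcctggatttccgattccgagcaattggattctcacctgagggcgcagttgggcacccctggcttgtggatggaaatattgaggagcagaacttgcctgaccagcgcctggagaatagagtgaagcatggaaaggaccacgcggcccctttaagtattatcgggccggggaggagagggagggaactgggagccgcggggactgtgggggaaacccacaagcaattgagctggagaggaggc

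SATB1, on chromosome 3 (18345377–18445592, reverse strand), had 6 H3K27ac peaks in DMSO and 5 in FHT-1015, all on the gene or within 1 kb of it. The widest, 18422936–18426308, covered the innermost annotated start with 32 and 38 reads. SOX10 had 11 and 3 peaks, and the 4 retained DMSO peaks lay at this same place, overlapped by the 3 FHT-1015 peaks. These 4 were 36.4% of the DMSO peaks, beside 13.2% in the whole list at this strength. In the gene body at 18361809–18362485 a SOX10 peak of 28 reads was lost, and TFAP2A there had 53 reads (39.7–69.3) in DMSO and 10 (4.8–18.4) in FHT-1015. This TFAP2A ratio, 0.197, was the lowest of the 67 strong retained TFAP2A peaks in the windows. MITF had 8 peaks in each condition, but 2 of the DMSO peaks were retained (25%, whole list at this strength 35.4%). The promoter of the first start, at chr3:18445573-18445842, is shown for its TFAP2A summit in DMSO, and its GCCNNNGGC begins 26 bases after the start, past the printed stretch.
SATB1 first start: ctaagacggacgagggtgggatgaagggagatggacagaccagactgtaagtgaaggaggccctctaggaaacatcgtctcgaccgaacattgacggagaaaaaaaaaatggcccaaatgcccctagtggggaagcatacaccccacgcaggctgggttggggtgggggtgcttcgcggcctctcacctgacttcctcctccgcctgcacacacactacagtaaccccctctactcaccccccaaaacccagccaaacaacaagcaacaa

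LMCD1, which encodes a LIM and cysteine-rich domain protein, lies on chromosome 3 (8501823–8574668). SOX10 had 15 peaks in DMSO and 2 in FHT-1015. All 3 DMSO peaks at or just inside the start were lost: 8501511–8502108 with 29 reads, 8502454–8503467 with 51 and 8503814–8504790 with 89. TFAP2A at 8502466–8503549 had 178 reads (153–206) in DMSO and 62 (47.5–79.5) in FHT-1015. MITF there had 72 and 52. H3K27ac inside the gene, 8502473–8505354, had 81 and 51 reads. Their summits lay 2386 and 1118 bases from the start, so these counts come from different places. Upstream of the start, an FHT-1015 peak of 126 reads (105–150) lay over DMSO peaks of 31 and 66 (51–84). A small H3K27ac peak just behind the start, 8501848–8502228, had 36 and 44 reads. Of these H3K27ac sites only the one further inside was lower. It was the strongest of LMCD1 in DMSO, which by itself favours a lower second value. SMARCA4 had 11 and 9 peaks, and 2 of the 11 were retained (18.2%, Wilson interval 5.14–47.7%). At the same strength the whole list kept 53.5%. No test was made over the many pairs of gene and antibody, so this low share may be one of many. The promoter, at chr3:8501573-8501842, is shown because MITF and TFAP2A summits lay in it in both conditions, and it holds none of the motifs.
LMCD1 start: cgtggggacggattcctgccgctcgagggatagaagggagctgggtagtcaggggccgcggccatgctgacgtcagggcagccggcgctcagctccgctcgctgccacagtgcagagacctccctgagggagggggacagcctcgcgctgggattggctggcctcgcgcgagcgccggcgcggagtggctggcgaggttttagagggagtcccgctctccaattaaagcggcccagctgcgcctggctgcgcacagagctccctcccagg

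BAP1, which encodes a nuclear deubiquitinase, lies on chromosome 3 (52401008–52410008) and carried active chromatin at its higher-coordinate end in both conditions. The DMSO H3K27ac peak 52409170–52412116, with 81 reads (64.3–101), also covered the lower boundary of PHF7. In FHT-1015, 2 peaks lay there, and the stronger, 52410521–52412148 on the PHF7 side, had 149 reads (126–175). TFAP2A over the BAP1 end had 38 reads in DMSO and 59 in FHT-1015. TFAP2A peaks in the window numbered 14 and 25, but strong ones numbered 6 in each condition. Of the 14, 11 were retained (78.6%, whole list at this strength 55.1%). SMARCA4 had 5 and 8 peaks with all 5 retained (whole list at this strength 54.8%), and SOX10 had 6 and 3 peaks. The window holds 5 other coding genes (DNAH1, PHF7, SEMA3G, TNNC1 and NISCH). The strongest DMSO TFAP2A peak, near NISCH at 52456085–52456820, had 115 reads in DMSO and 23 in FHT-1015. Its choice as the strongest in DMSO by itself favours a lower second value.

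Grouped by risk class, the 5 high-risk genes had 39 DMSO and 9 FHT-1015 peaks of SOX10, with 6 retained (15.4%, Wilson interval 7.25–29.7%). The 4 low-risk genes had 73 and 32, with 24 retained (32.9%, 23.2–44.3%), of which ROBO1 gave 12 and ID2 6. The intervals overlapped, and no difference between the classes was tested. At the same peak strength the whole list had 15.1% for the high-risk peaks and 21.1% for the low-risk peaks. The 9 comparison genes had 103 and 38 SOX10 peaks, with 24.3% retained (17–33.4%), close to the members' 27.1%.

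The other antibodies did not share one order between the classes. Retained shares of the high-risk and low-risk genes were 60.7% (42.4–76.4%) and 40.6% (29.8–52.4%) for MITF, and 62.9% (46.3–76.8%) and 49.3% (38.3–60.4%) for SMARCA4. H3K27ac had 61.4% and 74.4%, and TFAP2A 60.7% and 62.9%. The intervals of the 2 classes overlapped for these antibodies too, and no difference was tested.

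By position, SOX10 peaks within 1 kb of a gene start (or of either end, for HTR2B, CDH1 and BAP1) were retained in 8 of 18 cases, against 14 of 62 in the rest of the gene bodies and 10 of 38 in the flanks. These SOX10 shares were 44.4%, 22.6% and 26.3%, beside 17.3%, 19.8% and 17.6% in the whole list at the same strength. Of the 8 retained at starts, ID2 and SATB1 gave 3 each, so place and gene cannot be told apart. For SMARCA4 the counts were 15 of 16 at starts, 26 of 56 in bodies and 23 of 43 in flanks. These SMARCA4 shares were 93.8%, 46.4% and 53.5%, beside 57.4%, 54.1% and 50.2% in the whole list at the same strength. Of the 56 SMARCA4 body peaks 35 lay in ROBO1, and of the 16 start peaks 7 lay at SATB1, so here too place and gene cannot be told apart. H3K27ac was retained in 13 of 17, 25 of 36 and 24 of 39 cases. These shares were 76.5%, 69.4% and 61.5%, beside 72.5%, 50.2% and 55.1% at the same strength.

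Overlap of SOX10 with H3K27ac differed more between the conditions than that of the other 3 factors. In DMSO 57 of 92 H3K27ac peaks (62%) shared a base with a SOX10 peak, and in FHT-1015 22 of 73 did (30.1%), beside 64.3% and 28.6% in the whole lists. All 4 factors overlapped 26 of 92 H3K27ac peaks in DMSO (28.3%) and 14 of 73 in FHT-1015 (19.2%), beside 34.9% and 19.1% in the whole lists. SMARCA4 overlapped 51.1% and 64.4%, beside 60.8% and 64%. Over the windows 27 of 92 DMSO H3K27ac peaks (29.3%) were free of all 4 factors, beside 21.6% in the whole list. HTR2B had 11 of its 21 free of them and CDH1 5 of 7. RAB31 and SATB1 had none, among only 4 and 6 peaks, so no trait of these genes is shown.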

How the data were processed

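The study measured chromatin occupancy in 92-1 cells by ChIP-seq. Per the submitters' processing notes the tools were BWA, SAMtools, Picard and MACS2 on hg38; their settings, versions and control are not given in the sources used here. The authors deposited 10 narrow lists, 1 per library, and 4 broad lists (H3K27ac and SMARCA4). The score deposited by the authors was not used. Each peak's fold ratio, its −log10 q and its −log10 p are the authors' deposited values and served to rank and filter within a list. Peaks with equal ends were counted once.

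The 10 genes and the comparison lists were chosen with earlier results of these data known. Every member was named; named peaks are each gene's widest H3K27ac peak, the strongest per antibody, the strongest lost and the strongest FHT-1015-only peak. Others were chosen after values were seen. Groups came from the titles. Summit reads were solved from fold and p under a Poisson background: of the peaks examined (3007 to 3096 per list), 100% gave a whole number within 0.002 in −log10 p. The SOX10 FHT-1015 list needed a scale of 0.89, and its whole reads before scaling are given. The total number of reads is not given; relative depth came from the lowest background. Same-strength shares use 10 strata of DMSO −log10 p. Wilson and Poisson intervals (95%) cover counting error only, since reads without molecular identifiers are not independent molecules. Strong peaks for the whole-list read ratios were sampled at even steps. RefSeq promoter entries were matched for 7 of the 10 genes (13 starts). Exons and introns were not analysed here. Python 3.11.15 with pandas 2.3.3, numpy 2.4.6 and statsmodels 0.14.6 was used, and overlap code was tested on simulated data. Alternatives were window width, peak threshold, overlap rule, leaving out ROBO1, and broad lists.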

Additional observations from a re-analysis of the deposited data

How the results depend on the processing

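The SOX10 ratio of peak number stayed below 1 under all 5 alternatives, with 0.178 for strong peaks (a −log10 p of 10 or more required in each list) and 0.239 for q under 0.05. Its covered-length ratio was 0.107 for strong peaks, and its retained share 17.8% both for strong peaks and when 50% of the DMSO peak had to be covered. The MITF ratio of peak number was 0.622 for strong peaks and 0.713 for q under 0.05, its covered-length ratio 0.605 for strong peaks and its retained share 36.6% with 50% covered. The TFAP2A ratio was 0.695 for strong peaks. The H3K27ac retained share was 97.5% for strong peaks and 33.7% with summits within 200 bp, and that of SMARCA4 37.4% with summits within 200 bp. The cause was not tested. In the whole MITF lists 89.7% of DMSO and 61.1% of FHT-1015 peaks had q under 0.05. The other 90 values stayed within the counting interval (1.5 times for lengths and counts of genes), among them all those without ROBO1 and with broad lists. Without ROBO1 the H3K27ac retained share was 60.3%, and its interval takes in the same-strength value. Genes with active chromatin numbered 8 to 10 in either condition. With 50 kb either side all 10 had a peak, PRAME through the site at ZNF280B. Of 100 peak numbers per gene, antibody and condition, 59 moved by over 1.5 times with 100 kb windows and 86 with strong peaks. Either setting changes such counts by its nature, so these tallies do not measure how the conditions compare. No paired analysis was possible because each group has 1 library. The depth of 8 to 26 summit reads at the median peak limits what a lost weak peak shows.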
